A study of Mus musculus with 12 samples.

Results

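The baseline transcriptome of the anterior prostate of wild type mice is described here across 8 arrays. They are all the wild type samples of a series of 12 arrays and were taken by their genotype label. Each array measured equal amounts of RNA from 2 males, so the 8 arrays hold 16 mice, and a replicate is a pool of mice. The mice were B6D2F3, from the F3 generation of a cross of C57BL/6J with DBA/2, and carried no transgene. They ate the semi-purified AIN93G diet from 3 weeks of age and were killed at 12 weeks, when the whole anterior lobe was frozen. The other 4 arrays of the series, from APT121 mice of the same background, diet and age, shared the normalisation. Beyond that they were used only in an alternative choice of cluster, and none of their values is given below. The labels do not say which litters or days the pools came from, so the spread between arrays may be partly technical.

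The anterior prostate, also called the coagulating gland, is a pair of lobes that lie along the seminal vesicles. Its tall luminal cells make proteins on the rough endoplasmic reticulum (ER), pass them through the Golgi and store them in the lumen. At ejaculation its transglutaminase cross-links seminal vesicle proteins into the copulatory plug. Basal cells line the ducts beneath the luminal cells, and a sheath of smooth muscle and fibroblasts surrounds them. Secretion depends on testosterone.

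Values are log2 of a normalised probe intensity, given as mean ± SD over the 8 arrays (n = 8) or by array. Where 3 values are listed they are the lowest, the median and the highest array. Intensity depends on the probes as well as on the RNA, so a rank is one of measured intensity and not of the number of molecules, and no ratio between genes is given. Of 19935 genes with a cluster of their own (a cluster is the set of probes that reads 1 transcript), the median gene had a mean of 5.38. No detection calls were used. Instead, the 95th percentile of 1027 olfactory receptor genes, 4.14, served as a floor, and 13848 genes (69.5%) lay above it. The counts of genes above the floor given below are to be read beside this share. A count near it says nothing particular about a list.

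Pearson's r across genes between any 2 arrays, which shared their normalisation, ran from 0.990 to 0.995, median intensities from 32.4 to 33.7 and highest intensities from 18323 to 20604. The main axis of variation between arrays (first principal component, 28.4% of the variance) parted arrays 1 to 4 from arrays 5 to 8. The former lay at -0.42 to -0.31 on it and the latter at 0.27 to 0.46. An SD over the 8 arrays therefore includes this split, whose source was not tested. Some arrays also stood apart in sets of genes. Array 6 held seminal vesicle transcripts. In 5 of 8 brown fat genes arrays 5 and 7 had the 2 highest values. Arrays 5 to 8 had higher values of autonomic neuron genes. These values are given below, and levels that rest on them are given by array. In whole tissue, fewer cells of a type and less RNA per cell cannot be told apart.

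The genes that mark this lobe are shown first by the DNA in front of them, because 3 of 5 had an entry in the promoter table. Each sequence is the 250 bases before the start of transcription on the gene's own strand, from RefSeq, build GRCm38.p6. Capitals mark matches to the letters TATAAA, the core promoter motif that the TATA-binding protein recognises, and AGAACA, a half-site of steroid receptors, searched on both strands. The Pbsn window is chrX:77853501-77853750, minus strand. The Tgm4 window is chr9:123034491-123034740, plus strand. The Pnliprp1 window is chr19:58728637-58728886, plus strand. Fgl1 and Gsdma are named only.
Pbsn: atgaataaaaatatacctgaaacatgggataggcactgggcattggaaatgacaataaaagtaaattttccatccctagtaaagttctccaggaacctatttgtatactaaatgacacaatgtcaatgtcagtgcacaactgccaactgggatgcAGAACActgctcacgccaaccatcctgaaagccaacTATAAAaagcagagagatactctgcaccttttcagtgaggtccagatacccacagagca
Tgm4: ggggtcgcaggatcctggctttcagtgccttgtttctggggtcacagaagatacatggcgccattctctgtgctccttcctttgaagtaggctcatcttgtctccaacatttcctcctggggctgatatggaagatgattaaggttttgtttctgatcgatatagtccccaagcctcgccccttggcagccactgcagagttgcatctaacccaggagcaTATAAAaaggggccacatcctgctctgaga
Pnliprp1: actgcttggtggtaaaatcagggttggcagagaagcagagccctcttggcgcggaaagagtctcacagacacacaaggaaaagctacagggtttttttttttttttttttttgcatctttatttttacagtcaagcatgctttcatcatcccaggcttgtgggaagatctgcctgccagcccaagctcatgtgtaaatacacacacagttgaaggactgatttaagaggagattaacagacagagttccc

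The Pbsn window held TATAAA at position -59 and AGAACA at position -95, counted back from the start. The Tgm4 window held TATAAA at position -30 and no AGAACA. The Pnliprp1 window held neither, nor the other 2 motifs searched, TGTTTAC (forkhead factors) and AGATAA (the family of Gata2 and Gata3), and Pbsn and Tgm4 held no match to these 2 either. A match is a description of the letters and not a site of binding. Among 72 windows of 59 secretory genes above the floor, TATAAA was in 15.3% and AGAACA in 22.2%. Over the 19175 windows of all measured genes the shares were 10.5% and 13.2%. The windows of the ER genes described below differed in make-up from those of the secretory genes, with TATAAA in 0 of 30, a median GC content of 62.2% against 52.8%, and a median ratio of observed to expected CpG of 0.845 against 0.242. Olfactory receptor windows, at 33.8% GC, held TATAAA in 39.5%. The part of base composition in these shares was not tested.

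All 5 genes given as marks of the lobe lay in the brightest 10% of genes. Tgm4, the prostate transglutaminase that clots seminal fluid, had the highest mean of all 19935 genes, 13.91 ± 0.05, and its arrays ran 13.85, 13.92 and 13.98. Pbsn, the androgen-dependent lipocalin probasin, was rank 12 at 12.79 ± 0.07 (12.68, 12.81 and 12.91). Both genes stayed within a narrow band, and no array stood out.

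Gsdma, a member of the gasdermins, which form membrane pores, was rank 88 at 11.55 ± 0.15. Its values were 11.37 to 11.44 in arrays 1 to 4 and 11.63 to 11.77 in arrays 5 to 8. Fgl1, a secreted protein of the fibrinogen fold, was rank 124 at 11.31 ± 0.27 (10.86, 11.30 and 11.76), with array 4 lowest and array 8 highest. Its range of 0.90 was the widest among the 200 brightest genes. Pnliprp1, a relative of pancreatic lipase, was rank 283 at 10.53 ± 0.17 (10.36, 10.51 and 10.85), with array 4 highest and arrays 5 to 8 between 10.36 and 10.41. These 5 genes were chosen with earlier results of these arrays known, so their levels are a description and no test of the tissue label.

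**Figure D1:**
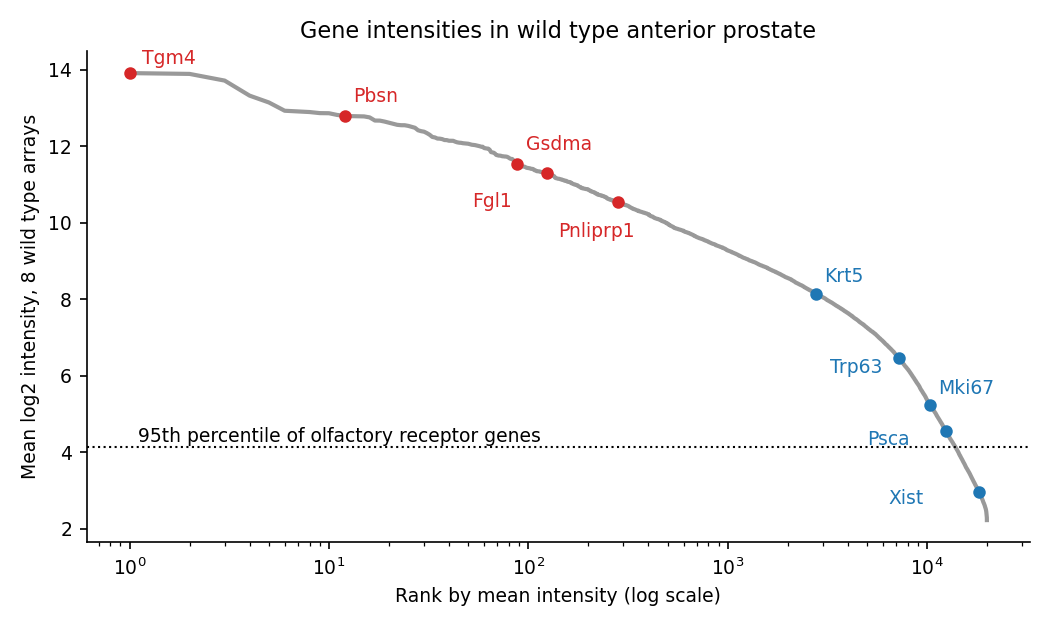
Mean log2 intensity over 8 wild type arrays against rank (log scale) for 19935 genes (grey line), with the 5 genes that mark the lobe in red, other named genes in blue and the olfactory receptor floor dotted. Tgm4 is at rank 1, Pnliprp1 at rank 283, and Xist lies under the floor.

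In each of these families the lobe's gene was the brightest member. The marker genes and the lists were chosen with earlier results of these arrays known, so this order is a description and no result about the families. Of 7 transglutaminases, Tgm2, the widely expressed tissue form, came next at 7.96 ± 0.18, and Tgm6 and Tgm7 lay under the floor. Of 10 lipocalins, Lcn2 was next at 6.62 ± 0.59, and the 6 genes Lcn3, Lcn4, Lcn6, Lcn8, Lcn9 and Lcn10 were between 2.99 and 3.66. Pnliprp2, the paralog of Pnliprp1, was at 4.30 ± 0.18. Fgl2 was at 6.43 ± 0.18, and the fibrinogen chains Fga, Fgb and Fgg at 4.07, 3.61 and 2.81, all under the floor. Of 8 gasdermins 5 lay above the floor, with Gsdmd next at 5.90 ± 0.21, Gsdmc2 at 5.83 ± 0.97 and Gsdma3 at 5.59, while Gsdma2 was at 3.98.

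Among the 100 brightest genes, 25 were cytosolic ribosomal protein genes (of 61 measured), 9 were ER genes (of 37) and 6 were on the secretory lists (of 163). The others, the larger part, were on none of these lists. These 100 genes held 14.8% of the summed linear intensity of the genes, and the 50 brightest held 9.63%. Of the 100, 86 were in the top 100 of every array and 122 genes were in that of at least 1 array.

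Eef1a1, the elongation factor that brings aminoacyl-tRNA to the ribosome, was rank 3 at 13.72 ± 0.05, and Pabpc1, which binds poly(A) tails, was at 12.91 ± 0.08. The ribosomal gene Rpl10 was at 13.32 ± 0.07. Metallothioneins, small proteins that bind zinc and copper, followed with Mt2 at 12.90 ± 0.07 (12.76, 12.90 and 13.00) and Mt1 at 12.86 ± 0.06 (12.76, 12.86 and 12.94). Other bright genes were the iron store Fth1 at 12.53 ± 0.06, beta-actin (Actb) at 12.87 ± 0.12, the MHC class I light chain B2m at 12.62 ± 0.09 and Hspa8, a chaperone, at 12.20 ± 0.12. In Actb the arrays 5 to 8 (12.93 to 13.01) lay above arrays 1 to 4 (12.66 to 12.84).

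Less familiar names also stood near the top. Tcaf3, of the family of proteins that associate with the TRPM8 channel, was rank 14 at 12.78 ± 0.08 (12.70, 12.76 and 12.89). C1s2, which encodes a protease like complement C1s, was rank 26 at 12.51 ± 0.11. Rnase1, a secreted ribonuclease, was at 12.30 ± 0.09, and Pate9, of the prostate and testis expressed family, at 12.24 ± 0.13. Glb1l3, a relative of beta-galactosidase, was at 12.14 ± 0.11, and Cst3, the secreted protease inhibitor cystatin C, at 12.09 ± 0.11. Pate9 was 12.28 to 12.41 in arrays 1 to 4 and 12.10 to 12.20 in arrays 5 to 8.

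The high ranks of Baiap2l1 and Hk1 came from clusters that carried no RefSeq accession of the named gene. Baiap2l1 was rank 2 at 13.89 through the brightest of 3 clusters. The cluster with the accession of Baiap2l1 read 5.64. Hk1, hexokinase, was rank 15 at 12.78, whereas the cluster with its RefSeq transcripts read 7.18. Neither value is used as a level of its gene. Among the 100 brightest genes, 37 had over 1 cluster, and in 5 (Baiap2l1, Hk1, Ppia, Pdia4 and Rpl23) a cluster lay 2 or more below the one used. Among the 100 brightest clusters themselves, 47 carried several symbols and 14 carried none, and these were not ranked.

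The machinery that makes and folds secreted proteins was bright as a group. All 37 measured genes of ER translocation, folding and vesicle transport lay above the floor, 35 of them in the brightest 10% of genes, with a median of 10.72 against 5.38 over all genes. Dnajc10, an ER reductase that breaks disulfide bonds (not on that list), was rank 6 at 12.93 ± 0.04. The disulfide isomerases Pdia6, Pdia3 and P4hb were at 12.59 ± 0.11, 12.16 ± 0.12 and 12.12 ± 0.09, and the ER chaperones Hsp90b1 and Hspa5 at 12.42 ± 0.11 and 12.38 ± 0.19. Calreticulin (Calr) and calnexin (Canx), which hold glycoproteins while they fold, were at 12.02 and 11.45.

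Earlier and later steps of the route were nearly as bright. The channel subunit Sec61a1 was at 11.76 ± 0.08, the signal peptidase subunits Spcs1, Spcs2 and Spcs3 between 10.72 and 11.07, and the translocon subunits Ssr2, Ssr3 and Ssr4 between 10.79 and 11.41. The COPI coat gene Copa was at 11.37 ± 0.08 and the cargo receptor Tmed10 at 11.35 ± 0.07. Sensors of ER stress were also read, with Atf6 at 10.33 ± 0.09, Ern1 at 9.74 ± 0.17 and Eif2ak3 at 9.21 ± 0.13. Ern2, the form of Ern1 known from mucous epithelia, was at 4.59 ± 0.08. Creld2, an ER stress gene, varied most of those named in this group, from 10.12 in array 4 to 11.15 in array 6.

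Of 32 kallikreins and other secreted or surface proteases measured, 18 lay above the floor and 7 in the brightest 10%, with a median of 4.33. The brightest were not kallikreins. Mmp7 (matrilysin), a metalloproteinase of glandular epithelium, was rank 65 at 11.85 ± 0.19 (11.53, 11.88 and 12.06). The transmembrane serine protease Tmprss2 was at 10.11 ± 0.18, its relative St14 (matriptase) at 9.57 ± 0.08 and Prss8 (prostasin) at 8.76 ± 0.06. Spint2, an inhibitor of such serine proteases, was brighter in rank, 50, at 12.07 ± 0.06. These 5 genes had SDs of at most 0.19.

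The peptidases that trim small peptides included Ace, the angiotensin converting enzyme, at 10.65 ± 0.10, Dpp4 at 9.43 ± 0.17 and Mme, neprilysin, at 10.76 ± 0.50. Mme read 11.40, 11.00, 11.06 and 11.30 in arrays 1 to 4 and 10.50, 10.58, 10.19 and 10.09 in arrays 5 to 8, so the latter were all below the former. Anpep, aminopeptidase N, was at 5.23 ± 0.09, near the median gene. The other non-kallikrein members were hepsin (Hpn) at 6.35 ± 0.29 and the plasminogen activators Plau at 5.86 ± 0.58 and Plat at 5.36 ± 0.17.

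Kallikreins, the protease family that includes prostate-specific antigen in humans, were dim in this lobe. Of 22 measured, 7 lay above the floor, and the brightest were Klk9 at 4.85 ± 0.19 and Klk4 at 4.82 ± 0.14, both under the 99th percentile of olfactory receptors (4.96). The 9 measured members of the Klk1b group, which is large in mice and whose members are close in sequence, ran from 2.63 (Klk1b16) to 4.18 (Klk1b9). Acpp, the prostatic acid phosphatase, was at 4.42 ± 0.17, also close to the floor.

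Protease inhibitors were led by Serping1, the C1 inhibitor, at 9.01 ± 0.15 and the intracellular serpin Serpinb6a at 8.98 ± 0.14. Spink8, a Kazal-type inhibitor, was at 8.18 ± 0.25 and was the only one of 13 Spink genes above 4.97 in mean. Of 18 genes with a WAP domain, 11 passed the floor, led by Wfdc1 at 6.51 ± 0.18. Serpina5, the protein C inhibitor found in semen, had a mean of 7.34 that hides its spread. It read 4.82 in array 1, 4.29 in array 8 and 6.99 to 9.77 in arrays 2 to 7.

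Most products of mucosal defence lay under the floor. Of 23 measured, 9 were above it and 3 in the brightest 10%, with a median of 3.71. Of 39 beta-defensins, 10 lay above the floor, and Defb50 (9.14 ± 0.59) and Defb1 (9.13 ± 0.31) were the only ones above 5.07. Defb50 ran 8.41, 9.02 and 10.24, with array 6 highest and array 8 lowest. Clusterin (Clu), an extracellular chaperone, was at 8.70 ± 0.49 and the polymeric immunoglobulin receptor (Pigr) at 7.01 ± 0.35. Lactoferrin (Ltf), at 3.61 ± 0.17, and both Reg3 genes, at 3.25 and 2.99, were under the floor.

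Several other epithelial products were high. Ceacam1, an adhesion protein, was rank 51 at 12.05 ± 0.12, and Egf, epidermal growth factor, rank 77 at 11.73 ± 0.12 (11.55, 11.76 and 11.88). Agr2, an ER protein of mucus-making cells, was at 11.06 ± 0.11, while Muc1, a surface mucin, was at 3.38 ± 0.14. None of the 9 measured mucins was above 4.31, and 3 of them (Muc4, Muc5b and Muc20) passed the floor. Azgp1, a zinc-binding glycoprotein of seminal fluid, was at 9.34 ± 0.66, with 9.62 to 10.29 in arrays 1 to 4 and 8.70 to 8.82 in arrays 5 to 8.

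Transcription factors of prostate identity mostly lay above the floor. Of 24 measured lineage factors and nuclear receptors, 23 lay above the floor and 7 in the brightest 10%, with a median SD between arrays of 0.12 against 0.14 over all genes. Ehf, an epithelial ETS factor, was at 11.44 ± 0.06, Gata3 and Gata2 at 10.94 ± 0.12 and 10.25 ± 0.09, Hoxb13, the posterior Hox gene of prostate, at 9.83 ± 0.11 and the pioneer factor Foxa1 at 9.62 ± 0.06. Xbp1, which builds secretory capacity, was at 9.76 ± 0.05, and the estrogen receptor Esr1 at 8.88 ± 0.09 with Esr2 at 5.29 ± 0.16. The progesterone receptor Pgr was at 4.10 ± 0.14, under the floor. Of 37 Hox genes 27 passed the floor, near the share over all genes (69.5%). After Hoxb13 the next were Hoxb9 at 7.77 ± 0.09 and Hoxd13 at 7.64 ± 0.21.

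Prostate is known for citrate and zinc handling and for polyamines. Of 19 measured citrate and zinc genes 18 passed the floor, 12 in the brightest 10%, with a median of 8.92. Beside Mt1 and Mt2 the brightest were Idh1 (isocitrate dehydrogenase) at 10.32 ± 0.24, Mt3 at 9.98 ± 0.17 and citrate synthase (Cs) at 9.60 ± 0.10. The zinc importer Slc39a1 was at 9.26 ± 0.10 and the vesicle zinc transporter Slc30a2 at 9.13 ± 0.18, while Slc39a2 (4.19 ± 0.10) was just above the floor. The citrate transporter Slc13a5 was under it at 3.83 ± 0.16. All 6 measured polyamine genes were above the floor (median 9.36), with Odc1, the first enzyme of the route, at 9.33 ± 0.39, from 8.82 to 9.21 in arrays 1 to 4 and from 9.48 to 9.81 in arrays 5 to 8.

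Marker genes of luminal epithelium were the brightest epithelial set, with all 15 above the floor, 12 in the brightest 10% and a median of 9.95. Krt18 and Krt8, the luminal keratins, were at 11.48 ± 0.06 and 10.55 ± 0.14, Cd24a at 12.09 ± 0.12 and E-cadherin (Cdh1) at 9.95 ± 0.08. The mean of the list ran from 9.76 to 9.96 over the arrays.

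Basal markers were lower, with all 13 above the floor, 1 in the brightest 10% and a median of 6.79. The basal keratins Krt5 and Krt14 were at 8.15 ± 0.20 and 6.79 ± 0.14, and Trp63, the basal cell factor p63, at 6.46 ± 0.16 (6.19, 6.46 and 6.70). The array means of this list, 6.59 to 6.83, moved little. All 6 measured markers of the luminal cells near the urethra were above the floor, with a median of 5.35, close to that of all genes, and 1 of them, the tight junction gene Cldn4 (10.34 ± 0.09), was in the brightest 10%. Ppp1r1b, a phosphatase inhibitor, was at 6.16 ± 0.12, the keratin Krt7 at 5.82 ± 0.24, Krt4 at 4.87 ± 0.37, Wfdc2 at 4.77 ± 0.20 and Psca at 4.55 ± 0.40. Psca and Krt4 were both highest in array 2, at 5.29 and 5.51.

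Of 11 neuroendocrine markers 7 passed the floor and none was above 4.99. Chga, chromogranin A, was at 4.93 ± 0.31, and Syp, a synaptic vesicle protein that neurons also hold, read 4.59 to 4.85 in arrays 1 to 4 and 4.99 to 5.43 in arrays 5 to 8. The list mean was 4.37 to 4.46 in arrays 6 to 8 and 4.06 to 4.16 in the others. The mean of the autonomic neuron genes described below was also higher in arrays 6 to 8 than in arrays 1 to 4. In array 5 the 2 lists differed, with the autonomic mean raised at 4.84 and the neuroendocrine mean at 4.14. The part of autonomic neurons in the neuroendocrine values was not tested.

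Smooth muscle was the second brightest set, with all 17 genes above the floor, 11 in the brightest 10% and a median of 9.27. Acta2, smooth muscle actin, was rank 44 at 12.10 ± 0.05, and Myh11, Tagln and Cnn1 were at 11.24, 10.96 and 10.43. Of 20 fibroblast and matrix genes all were above the floor, with a median of 7.75. Decorin (Dcn) was at 10.89 ± 0.09, Sparc at 9.72 ± 0.12, Col1a1 at 9.32 ± 0.10 and Pdgfra at 7.42 ± 0.08. Array means of the smooth muscle list ran from 8.77 to 9.05 and of the matrix list from 7.82 to 8.09.

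Blood vessel markers were moderate and even. All 17 passed the floor with a median of 6.01, led by Eng at 7.20 ± 0.18 and Pecam1 at 6.68 ± 0.17, and the array means were between 5.77 and 5.91. Of 6 lymphatic markers 4 passed the floor. Pdpn was highest at 6.76 ± 0.13, but Prox1, the factor that defines lymphatic cells, was under the floor at 3.42 ± 0.23.

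Of the 3 lists of immune cells, macrophage genes had the highest median. Of 17 macrophage and granulocyte genes 15 passed the floor, with a median of 5.68, among them Lyz2 at 7.53 ± 0.21, Csf1r at 6.59 ± 0.10 and the complement genes C1qa, C1qb and C1qc between 6.30 and 6.46. The neutrophil genes S100a8 and S100a9 were under the floor at 3.08 and 3.91. Of 8 mast cell genes 6 passed, with a median of 4.91, led by Hdc, the enzyme that makes histamine, at 5.73 ± 0.26. Of 17 lymphocyte genes 5 passed, and the median was 3.87. Ptprc, the pan-leukocyte CD45, was at 5.16 ± 0.17, Cd3e at 4.71 ± 0.16, Cd4 at 3.89 ± 0.13 and the B cell genes Ms4a1 and Cd79a at 3.13 and 2.88. The exception was Cd52 at 9.34 ± 0.49, a small surface antigen of lymphocytes that epithelium of the male tract is also known to make.

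**Figure D2:**
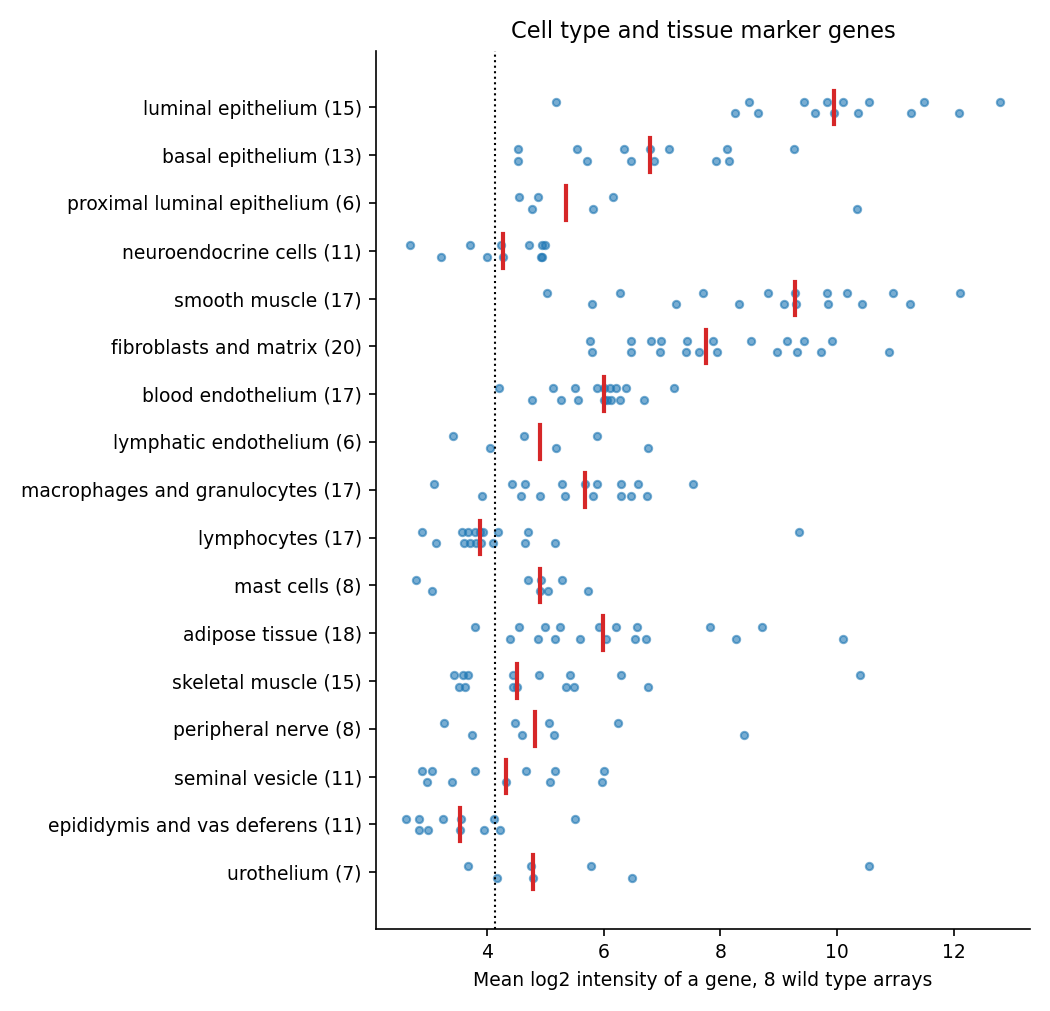
Mean log2 intensity over 8 wild type arrays of each marker gene (points, 1 row per list, number of genes in brackets), with list medians as red bars and the olfactory receptor floor dotted. Luminal (median 9.95) and smooth muscle (9.27) lists lie to the right and lymphocyte markers (3.87) mostly left of the floor, with Cd52 apart at 9.34.

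Genes of cell division lay near the level of the median gene. Of 19 measured, 18 were above the floor, with a median of 5.50 against 5.38 over all genes, and none was in the brightest 10%. Pcna, which also serves DNA repair, led at 8.20 ± 0.13, followed by the replication helicase subunit Mcm2 at 6.51 ± 0.22. Mki67, the proliferation marker Ki-67, was at 5.23 ± 0.20 (4.90, 5.28 and 5.48), and Bub1 was under the floor at 2.99 ± 0.15.

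The sex of the pools was read from the arrays as a check that the mice were male. This is no check of the tissue, since any male organ would read alike. Xist, the X-inactivation RNA of female cells, was at 2.96 ± 0.18, and the Y-linked genes Uty, Eif2s3y and Kdm5d at 8.39 ± 0.14, 7.75 ± 0.40 and 7.02 ± 0.24. No pool crossed the floor for these genes, as Xist was at most 3.26 and the 3 Y-linked genes at least 6.59.

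Sensory and placental gene families, known for use in other tissues, marked the lower end of the range. All 164 vomeronasal receptors, 34 bitter taste receptors, 13 trace amine receptors, 20 prolactin family genes and 12 pregnancy-specific glycoproteins lay under the floor. Their brightest members were Vmn2r54 at 4.03 ± 0.30, Tas2r126 at 3.87 ± 0.20, Taar5 at 3.88 ± 0.16, Prl2a1 at 3.49 ± 0.29 and Psg20 at 4.02 ± 0.20. Medians of these families lay between 2.69 and 2.99.

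Some members of such families stood out. Mrgpra6, of a receptor family known from sensory neurons, was at 8.06 ± 0.39 (7.62, 8.08 and 8.68), high in all 8 arrays, while 14 of the 18 measured Mrgpr genes were under the floor. The brightest olfactory receptor was Olfr767 at 7.34 ± 0.48 (6.61, 7.29 and 8.26), with array 3 highest, and Olfr1174 was next at 6.84 ± 0.18. Olfr558, whose human counterpart is known from prostate, was at 3.60 ± 0.16, under the floor. Of 44 hair keratin-associated proteins 14 passed it, led by Krtap17-1 at 7.29 ± 0.16. Intensity of a cluster can also come from related transcripts, which these arrays cannot separate.

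**Figure D3:**
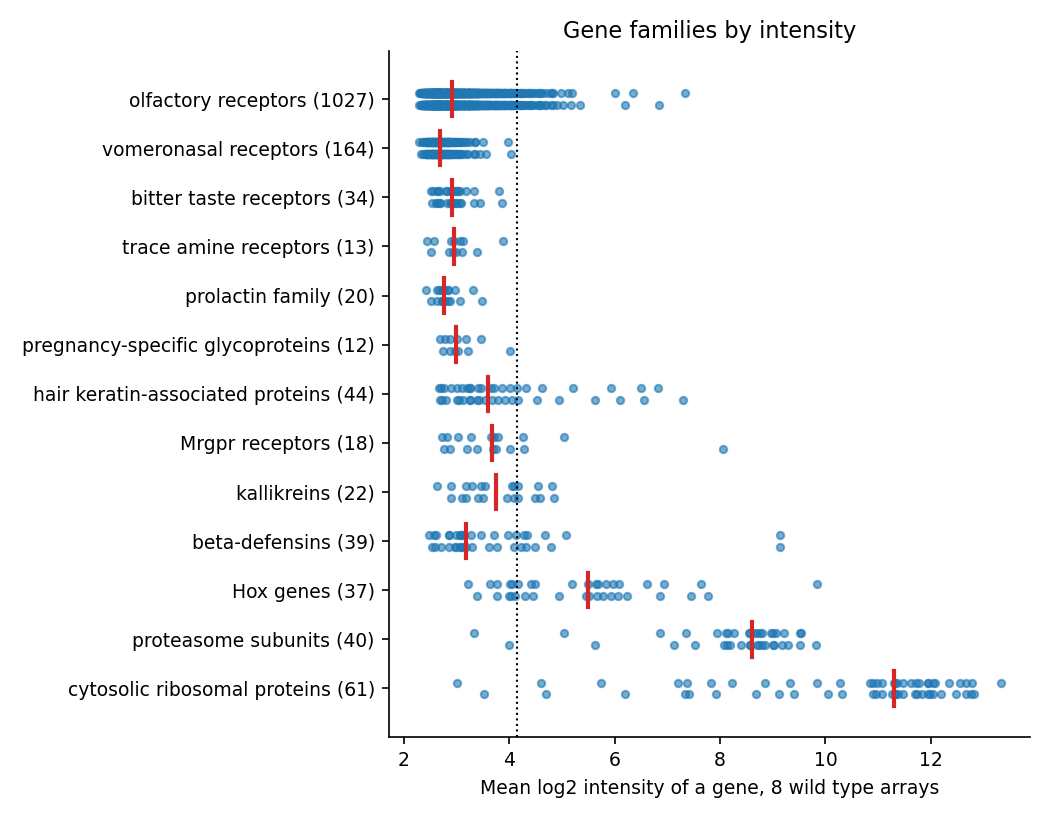
Mean log2 intensity over 8 wild type arrays of each gene in 13 families (points, 1 row per family, number of genes in brackets), with medians as red bars and the floor dotted. Olfactory receptors (median 2.91) and kallikreins (3.75) lie low, cytosolic ribosomal proteins (11.29) high, and Mrgpra6 (8.06) apart from its family.

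Genes of other organs gave a sense of how strict the floor is. Of 77 genes of pancreas, liver, eye, germ cells, early embryo, endocrine glands and brain, 29 lay above 4.14 and 13 above 4.96, and none was in the brightest 10%. Albumin (Alb) was at 3.02 ± 0.12, insulin (Ins2) at 3.95 ± 0.12 and the germ cell gene Ddx4 at 2.89 ± 0.09. The neuronal splicing factor Rbfox3 was the highest at 6.73 ± 0.05, with an SD among the smallest named here. A gene a little above the floor was therefore not taken as expressed.

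Most genes differed little between pools. The median SD over all genes was 0.14, and in 5 equal bins of mean intensity, from the dimmest to the brightest, it was 0.136, 0.160, 0.166, 0.136 and 0.107. Of the 13848 genes above the floor, 9398 (67.9%) had a range under 0.5 on the log2 scale, 381 (2.75%) a range of at least 1 and 50 (0.361%) a range of at least 2. The wide genes were not spread evenly over the arrays, since array 7 was the highest in 18 of the 50 and array 6 in 13. Without array 6 the number was 42, and without arrays 5, 6 and 7 it was 24.

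The widest genes were seminal vesicle products in array 6. Svs2, a protein of the copulatory plug and a substrate of Tgm4, read 12.93 there and 4.11 to 6.34 in the other 7 arrays. Svs5 read 12.15 against 4.37 to 5.75, Pate4 11.14 against 3.26 to 4.04 and Svs4 9.95 against 3.48 to 5.37. Array 6 was the highest for 10 of the 11 measured seminal vesicle genes, the exception being Pax2, a transcription factor at 5.16 ± 0.22. The list mean was 7.93 in array 6 and 3.54 to 4.01 in the others. The means of these genes over 8 arrays (Svs2 6.01, Svs5 5.97) thus described no pool. Their medians, 5.14 and 5.28, are nearer to 7 of the arrays. In array 6 Tgm4 (13.93) and Pbsn (12.71) were close to their medians. Cdo1, an enzyme of cysteine breakdown, was also highest in array 6, at 9.14 against 5.45 to 7.07.

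Msmb, beta-microseminoprotein, a major product of prostatic fluid, also differed widely between pools. Its 8 arrays read 8.60, 9.10, 7.53, 7.94, 11.67, 12.04, 5.12 and 7.32. Arrays 5 and 6 were highest and array 7 lowest, a range of 6.93, which only Svs2, Pate4 and Svs5 exceeded among the genes above the floor. Spink1, a trypsin inhibitor, read 4.71 and 5.22 in arrays 5 and 6 and 2.87 to 3.05 in the others. Cdcp3, a gene with CUB domains, read 7.55 and 8.76 in the same arrays and 4.55 to 5.52 in the others.

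Array 5 thus held high Msmb with low seminal vesicle genes, as its Svs2 was 4.30 and its list mean 3.60. Sbp and Sbpl, spermine-binding proteins of the ventral lobe, were at 2.65 ± 0.37 and 5.34 ± 0.26. Sbp was highest in array 6 at 3.47, still under the floor. The 5 genes listed for dorsal, lateral and ventral lobes were Msmb, Spink1, Sbp, Sbpl and Mmp7. Their mean was 7.26 and 7.60 in arrays 5 and 6 and 5.59 to 6.34 in the others. This mean includes the Msmb and Spink1 values above, so it is no separate observation. Mmp7, at 11.85 in mean, was also among the bright proteases of the anterior lobe. The part of other lobes in the values of other genes was not tested.

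**Figure D4:**
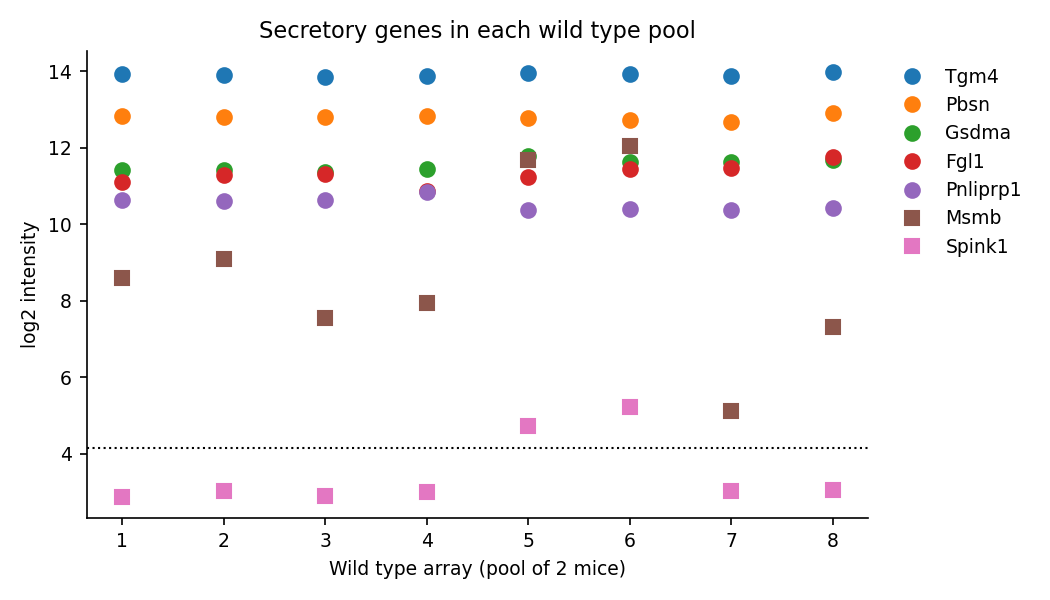
Log2 intensity of 7 secretory genes in each of the 8 wild type arrays (each a pool of 2 mice), with the floor dotted. The 5 genes that mark the lobe (circles) each range over at most 0.90, while Msmb and Spink1 (squares) are highest in arrays 5 and 6.

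Fat transcripts differed by pool as well. The mean of 18 adipose genes ran from 5.51 in array 1 to 7.10 in array 7, with array 5 at 6.68. Car3, a carbonic anhydrase of fat and muscle, read 6.78 in array 1 and 8.38 to 9.57 in the others, and Fabp4, the fatty acid carrier of fat cells, ran 5.64, 6.49 and 8.02. The brown fat list was added after the data were seen, so its counts only describe the genes chosen. Of its 8 genes, 5 had their 2 highest values in arrays 5 and 7. By the highest value alone, 5 genes were highest in array 7 and 1 each in arrays 3, 4 and 5. Cox8b, a respiratory chain subunit, read 6.80 and 6.82 there and 3.86 to 4.19 elsewhere. Ucp1, the uncoupling protein, read 5.79 and 6.84 against 3.67 to 4.77, and Cidea, a lipid droplet protein, 5.82 and 6.32 against 3.47 to 4.28. Thrsp, a gene of fatty acid synthesis, reached 7.03 and Gpd1, glycerol phosphate dehydrogenase, 8.53, both in array 7.

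Scd1, a fatty acid desaturase that epithelium also makes, was 10.11 in mean and 10.87 and 11.23 in arrays 5 and 7, above the 9.34 to 10.07 of the others. Acly, which makes acetyl-CoA from citrate, ran 8.38, 8.73 and 9.28 and was also highest in arrays 5 and 7. The part of fat in these values was not tested.

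Genes of autonomic neurons were higher in arrays 5 to 8. This list was added after the data were seen, so its means and counts only describe the genes chosen. The mean of 15 such genes was 4.21 to 4.35 in arrays 1 to 4 and 4.84, 5.26, 5.72 and 5.45 in arrays 5 to 8, and array 7 was the highest for 13 of the 15. Uchl1, a deubiquitinase of neurons, read 5.47 to 5.68 and then 6.52 to 7.74. Npy, the neuropeptide Y of sympathetic nerves, read 4.59 to 5.38 and 5.73 to 7.03, and Stmn2, a neuronal growth protein, 3.64 to 4.04 and 4.98 to 6.19. Th, the enzyme of catecholamine synthesis, read 4.48 to 5.04 and 5.19 to 5.98. The peripheral nerve list, of Schwann cell and axon genes, moved less, from 4.94 to 5.31.

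**Figure D5:**
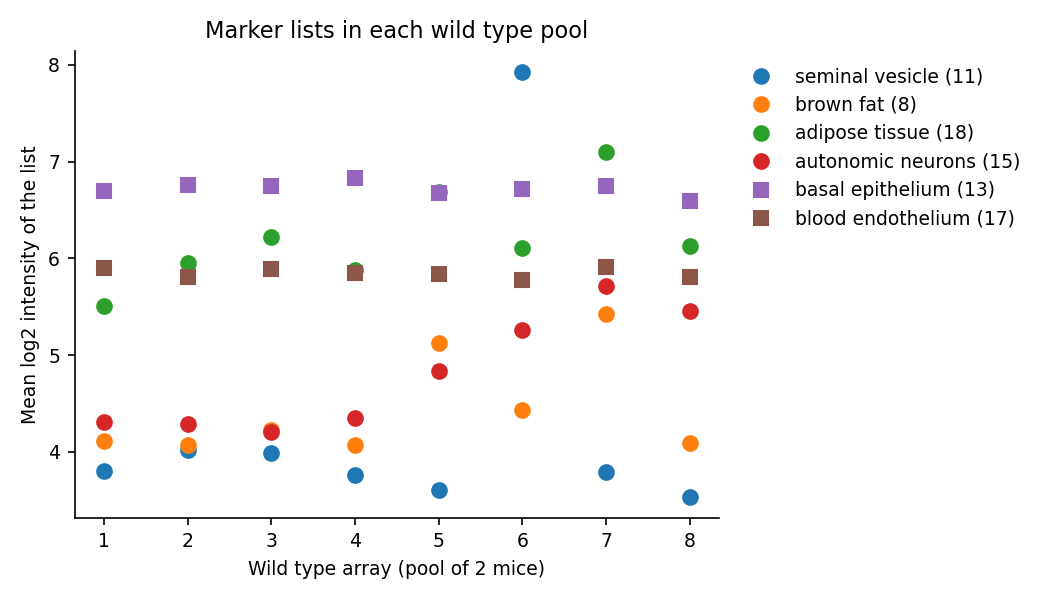
Mean log2 intensity of 6 marker lists in each of the 8 wild type arrays (number of genes in brackets). The brown fat and autonomic neuron lists were added after the data were seen. The seminal vesicle list is at 7.93 in array 6 only, brown fat is highest in arrays 5 and 7, autonomic neurons are higher in arrays 5 to 8, and the basal and blood vessel lists (squares) stay level.

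In 21 genes the arrays fell into 2 levels, each holding at least 2 arrays, that were parted by a gap of at least 1. Nudt10 and Nudt11, paralogs that cleave inositol pyrophosphates, ran in opposite directions. Nudt10 read 7.76 to 8.28 in arrays 1 to 4 and 5.35 to 6.07 in arrays 5 to 8, and Nudt11 read 5.11 to 5.98 and 7.56 to 7.66. RefSeq lists each name as a synonym of the other gene, and the paralogs are nearly identical. Whether probes of one also read the other was not tested. The predicted gene Gm5087 read 6.63 to 7.99 in arrays 1 to 4 and 3.88 to 4.21 in arrays 5 to 8. Stard4, a cholesterol carrier, read 7.11 to 7.51 and 5.72 to 5.88, and Rec8, a meiotic cohesin, 6.12 to 7.01 and 8.10 to 8.57.

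Further genes parted other sets of arrays. Itln1, an intestinal lectin, read 5.73 to 6.45 in arrays 2, 3 and 4 and 3.42 to 3.90 in the rest, and Aim2, a DNA sensor, 5.91 to 6.00 in arrays 2, 3 and 4 and 4.02 to 4.84 in the rest. Gsdmc2, another gasdermin, was also highest in these 3 arrays, at 6.74 to 7.32 against 4.77 to 5.47. Cd59a, which blocks complement, read 7.26 to 8.09 in arrays 1, 2 and 3 and 4.98 to 5.91 in the rest. Gramd3 read 7.57 and 7.81 in arrays 3 and 4 and 9.13 to 9.48 in the others. No date, litter or batch of the arrays was used, and the source of these splits was not tested.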

How the data were processed

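RNA was hybridised to Affymetrix GeneChip Mouse Gene 1.0 ST arrays, per the labels. The authors deposited 1 linear intensity per cluster and array, normalised by RMA over the 12 arrays together, per the design text of the series. Which program was run for this is not given in the sources used here. This step gives all arrays nearly the same distribution, which hides any difference in RNA per cell. Precision is limited by the 8 arrays, and no read depth exists.

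Intensities were put on the log2 scale. Of 28815 clusters, 21780 had 1 symbol in the platform annotation, 1605 several and 5430 none, and the latter 2 kinds were left out. The IDs of 21689 were found in RefSeq. For 998 genes with several clusters the one with the highest mean over the 8 wild type arrays was used. No filter and no test was applied.

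Named genes were the 40 brightest (predicted, noncoding and cytosolic ribosomal protein genes excepted), 5 markers, up to 4 of the brightest per list (46 lists), the 25 of widest range above the floor with the same exceptions, the brightest of each of 10 families taken as silent, which were picked from 23 families after the values were seen, and a fixed set. Some members of that set are not analysed here. Other list members named were chosen after their values were seen. The markers, lists and members were chosen with earlier results of these data known, and 2 lists (autonomic neurons, brown fat) were added after seeing the data. Alternatives were other choices of cluster, centring, quantile normalisation, other floors, another range and fewer arrays. The calculations were tested on simulated data and run in Python 3.11.15 with numpy 2.4.6, pandas 2.3.3 and matplotlib 3.10.9.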

Additional observations from a re-analysis of the deposited data

Results flagged for a closer look

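Of 287 sets of 8 values checked (named genes and list means), 26 had 1 array far from the other 7. Chance flags about 1 in 20 of sets that were not picked for their values, but these sets include genes named for their wide range, so the 2 shares cannot be compared. Array 6 was the outlying one in 13 of them, arrays 1, 3 and 8 in 3 each, array 2 in 2, and arrays 4 and 7 in 1 each. No cause was tested.

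In array 6 the outlying genes were the seminal vesicle genes Svs2 (12.93), Svs5 (12.15), Pate4 (11.14), Svs4 (9.95) and Svs1 (6.96), together with Cdo1 (9.14), the iron-scavenging lipocalin Lcn2 (8.02), the neurofilament gene Nefh (6.21), the muscle troponin Tnni2 (5.89) and the spermine-binding protein Sbp (3.47). The means of 3 lists were outlying in the same array, namely seminal vesicle (7.93), skeletal muscle (5.22) and Kazal and WAP protease inhibitors (4.31). The first and last of these lists share the gene Spinkl, so they are not separate observations. By family, the mean of 13 Spink genes was 4.02 in array 6 and 3.63 to 3.68 in the others. The mean of 18 WAP genes was 4.18 in array 6, within the 4.14 to 4.24 of the others.

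In array 1 the fat genes Car3 (6.78) and Lpl (5.39), which encodes lipoprotein lipase, and the fibrinogen chain Fga (3.66) were low. In array 3 Eef2 (12.43), Idh1 (9.80) and the mean of 12 reference genes (10.43) were low. In array 8 the mean of the 5 genes that mark the lobe (12.15) was high, and Ptprc (4.78) and the protamine Prm2 (4.57) were low. In array 2 Arf1 (12.18), a small GTPase of vesicle transport, was high and the lymphatic receptor Flt4 (4.33) low. The myelin gene Mbp was low in array 4 (6.06), and Otop1, a proton channel gene counted with brown fat, was high in array 7 (5.64).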

How the results depend on the processing

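The number of genes with a range of at least 2 between pools depended on the arrays. It was 60 over all genes (50 of them above the floor), 25 without wild type arrays 5, 6 and 7, 11 in wild type arrays 1 to 4 alone, 39 without arrays 5 and 6 (chosen after seeing the data), and 133 with a range of at least 1.5. Leaving out 1 array at a time gave 43 to 57, the lowest without array 6. The number of genes above the floor was 13785 to 13946 under the alternatives that change clusters, scaling or arrays, 11185 with the 99th percentile of olfactory receptors and 16763 with the 95th of vomeronasal receptors. Of the 100 brightest genes, 90 stayed with the mean of all clusters and 98 to 100 in the other settings. Of 10880 values of 680 gene levels under the alternatives, 40 moved by more than 1 SD. With the mean of all clusters 36 did, among them Baiap2l1 (10.22), Hk1 (9.98), Pdia4 (8.97), Tmed10 (10.53), Slc39a1 (8.51), Rpl10 (13.19) and Psg20 (3.57). With the log2 of the mean linear intensity 4 did, namely Svs2 (9.98), Svs5 (9.23), Pate4 (8.20) and Svs4 (7.17), which were high in array 6. The settings that only left out arrays could not pass 1 SD. In them the mean of the arrays kept cannot lie that far from the mean of all 8. The count of 40 therefore does not describe how levels depend on the arrays. The share of proteins that start with a hydrophobic stretch was not run, because no protein table was used here. No paired analysis was possible because a single group was described.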

Other observations

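Some groups outside the account above were also read in these 8 arrays. Claudins, the strand proteins of tight junctions, were led by Cldn8 at 10.93 ± 0.09, Cldn4 at 10.34 ± 0.09 and Cldn3 at 9.50 ± 0.04. Of 23 measured, 16 lay above the olfactory receptor floor, about the share over all genes (69.5%). Of 48 keratins 28 passed the floor, a lower share, and the brightest were the simple epithelial keratins Krt18 (11.48) and Krt19 (11.27). Of 44 collagens 43 passed, with Col1a1 at 9.32 and Col4a6, a basement membrane chain, at 8.80 ± 0.15. Mitochondrial ribosomal proteins were all above the floor (77 of 77) with a median of 7.38, and proteasome subunits in 38 of 40 with a median of 8.61.

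Epididymis and vas deferens genes were near the lower end, with 2 of 11 above the floor and a median of 3.53. Of 7 urothelium genes 6 passed it, and Upk1b, a bladder surface tetraspanin, was high in all 8 arrays at 10.55 ± 0.14 while Upk2 was at 5.79 ± 0.29 and Upk3a at 4.79 ± 0.14. Acta1, the skeletal muscle actin, was at 10.39 ± 0.19, whereas the fast muscle myosins Myh1, Myh2 and Myh4 were at 3.62, 3.67 and 3.51. Fam189a2 read 5.59 in array 3 and 7.00 to 8.50 in the others, and the metalloprotease Adam28 read 3.58 and 4.41 in arrays 3 and 4 and 5.29 to 6.62 in the others.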
